A study of Mus musculus with 68 samples.

Results

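Cyclins, cyclin-dependent kinases (CDKs), their inhibitors and activators, the mitotic kinases, the spindle checkpoint and the anaphase-promoting complex (APC/C) drive each cell through division. The 52 genes described here were chosen by gene symbol from these families, out of 24421 reference genes listed for every library. They comprise 11 cyclins, 7 CDKs and CDK inhibitors, 5 kinases and phosphatases that set CDK activity, 8 mitotic kinases and chromosomal passenger proteins, 5 spindle checkpoint genes, 4 activators and inhibitors of the APC/C, 7 genes of the APC/C itself and its ubiquitin-conjugating enzyme, 3 genes of metaphase II arrest and sister separation, and 2 DNA damage checkpoint kinases. Some of them are known as oocyte or germ cell genes that have a somatic counterpart (Wee2 and Wee1, Aurkc and Aurkb, Fbxo43 and Fbxo5, Ccnb3 and Ccnb1), so the question was which of each pair the clone carries at each stage, and how the other members move around the change from egg RNA to embryo RNA.

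RNA was sequenced by Smart-seq2, which copies polyadenylated RNA from a few cells. Cumulus cells (CCs), the somatic cells around the oocyte, served as nuclear donors, and metaphase II oocytes of adult BDF1 mice served as recipients. A CC nucleus was injected into an oocyte whose own chromosomes had been removed, and these somatic cell nuclear transfer (SCNT) embryos were activated in strontium chloride with cytochalasin B for 6 h. There were 3 libraries of CCs, 5 at the 4-cell stage (4C) and 6 each at 6 h and 14 h post activation (6 hpa, 14 hpa), the early and late 2-cell stages (E2C, L2C), the 8-cell stage (8C), the morula, and the blastocyst, which was taken apart into trophectoderm (TE) and inner cell mass (ICM). A further 12 libraries came from the ICM and TE of fertilized C57BL/6j blastocysts. Their zygotes had received a morpholino (MO) against Max, an MO against Mcrs1 or control, with 2 libraries per group. The control libraries are labelled untreated, while the protocol names a random control MO. The authors state a different MO concentration for each of these groups, the highest for the control, so target and concentration differ together. Max encodes the partner of Myc and Mcrs1 a chromatin and spindle protein. ICM and TE were separated by micromanipulation. The fertilized embryos differ from the clones in strain and experiment, so the clones are not compared with them.

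In metaphase II the egg is held by Mos and by Fbxo43 (Emi2), an inhibitor of the APC/C. Activation releases the APC/C, which tags cyclin B and securin (Pttg1) for destruction so that separase (Espl1) can part the sister chromatids. The embryo then divides on stored messages until its own genome is switched on, in the mouse mainly at the late 2-cell stage. Oocyte messages can be held with short poly(A) tails, so a level in these libraries is a level of polyadenylated RNA.

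Levels are given as TPM, a relative abundance scaled by gene length and by the total of the library. Between 37 and 51 of the 52 members reached 1 TPM in a library, and 6177 to 11771 reference genes did. The aligned bases ran from 1.00 to 5.17 gigabases per library. SCNT ICM replicates 1 to 3 held fewer genes at 1 TPM (6177 to 6771) than replicates 4 to 6 (9011 to 10032). The same order was seen at 6 hpa (8301 to 8961 against 9093 to 9417) and at 14 hpa (7438 to 9103 against 10160 to 10564). It was also seen in the SCNT TE (8401 to 8728 against 9284 to 9812). At E2C the order was the other way (10122 to 10917 against 9903 to 9967). Cumulus markers summed to 2297 to 3619 TPM in CCs, with Amh listed at 0, and to 4.46 to 14.6 TPM at 6 hpa. Oocyte markers summed to 6885 to 16142 TPM at 6 hpa and to 0.543 to 2.32 TPM in CCs. TE markers summed to 2034 to 8514 TPM in the SCNT ICM against 5143 to 16239 TPM in the SCNT TE, and ICM markers to 761 to 1304 TPM against 244 to 805 TPM. Within the SCNT TE, the TE markers summed to 5143 to 6944 TPM in replicates 1 to 3 and to 13325 to 16239 TPM in replicates 4 to 6. In control ICM replicate 1 the TE markers summed to 16307 TPM, near the 18684 to 20878 TPM of the control TE, whereas control ICM replicate 2 held 622 TPM. These are bulk samples, so fewer cells of a type and less RNA per cell cannot be told apart, and the labels do not say that replicates were separate cultures or animals, so p-values measure the spread between these samples. Ccnb1, Ccnb2 and Ccnd3 have annotated pseudogenes, and how reads were shared with them is not given, so their levels are less certain.

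Each library also lists loci assembled from its own reads, and the printed levels are those of the reference genes. The summed TPM of the reference genes, as a share of that of the assembled loci, differed between libraries. This share was 30.4% to 61.8% at L2C and 87.1% to 89.7% at the morula. At 4C it was 44.0%, 52.3% and 53.1% in replicates 1 to 3, and 75.6% and 73.5% in replicates 4 and 5. In the fertilized ICM and TE it was 85.5% to 90.3% in the control libraries and 93.6% to 94.4% in the MO libraries. Share and MO treatment therefore differ together. Printed levels are not rescaled for this share. Of 3044 member values at 1 TPM or more, 2336 had an assembled locus on the same strand within 1.5-fold and 685 had one that was more than 1.5-fold higher. A locus can span neighbouring genes. The locus was higher by that margin, and at 5 TPM or more, in 55 of 68 libraries for Espl1 and for Cdk7, in 47 for Anapc1, in 32 for Cdkn1b, in 27 for Pttg1 and in 25 for Bub1b. It was so in 34 for Cdc25b, in 32 for Cdc25a, in 28 for Anapc10 and in 26 for Incenp. Wee1, Ccne2 and Cdk6 had 24 such libraries each, Ccnd1 had 23 and Fzr1 had 22. For these genes a printed level may leave out part of the signal of the locus. Locus values are given beside some of the results of Pttg1, Cdkn1b, Bub1b, Espl1 and Anapc1. Results of these genes that have no locus value beside them are less certain. Locus values are not given for the pairs that hold Wee1, Ccne2, Cdc25a, Cdc25b or Fzr1, so those levels and ratios are less certain.

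**Figure D1:**
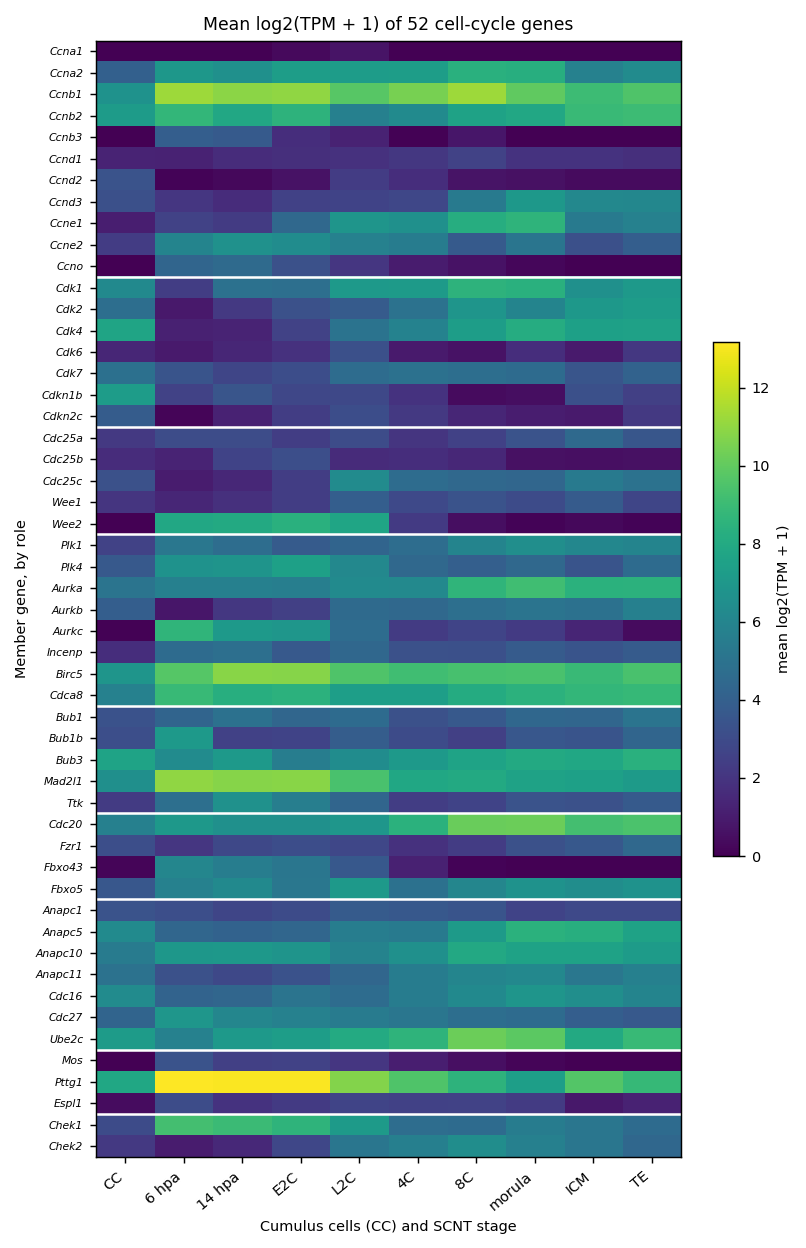
Mean log2(TPM + 1) of the 52 members (rows, in role groups parted by white lines) in CCs and at the 9 SCNT stages (columns). Wee2, Aurkc and Fbxo43 are bright from 6 hpa to E2C and dark from 8C on, with Wee2 at a mean of 237 TPM at 6 hpa and 0.507 TPM at 8C, while Cdk4 is dark at 6 hpa (1.43 TPM) and bright at the morula (291 TPM).

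The bases upstream of the start site are shown for the genes on which the stage results turn. These are the 5 members with an entry in the RefSeq promoter table among the 6 with the largest change from 6 hpa to the morula, and Cdc20 and Ube2c, which differed in the morpholino groups. Each run is the 250 bases before the start site on the gene's strand, in build GRCm38.p6. Capitals mark 3 motifs on either strand, the CCAAT box, TTTGAA (the core of the cell cycle homology region) and CACGTG (the E-box bound by Max dimers).
Wee2, chr6:40442613-40442862, plus strand: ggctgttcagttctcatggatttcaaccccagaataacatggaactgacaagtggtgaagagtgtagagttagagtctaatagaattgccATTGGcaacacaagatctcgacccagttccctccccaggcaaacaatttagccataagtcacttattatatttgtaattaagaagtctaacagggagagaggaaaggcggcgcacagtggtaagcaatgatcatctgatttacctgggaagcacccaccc
Aurkc, chr7:6995135-6995384, plus strand: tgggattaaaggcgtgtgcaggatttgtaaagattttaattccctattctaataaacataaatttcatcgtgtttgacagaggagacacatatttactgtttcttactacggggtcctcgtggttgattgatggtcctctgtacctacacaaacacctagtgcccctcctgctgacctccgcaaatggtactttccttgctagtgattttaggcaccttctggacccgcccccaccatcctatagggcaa
Cdk4, chr10:127063285-127063534, plus strand: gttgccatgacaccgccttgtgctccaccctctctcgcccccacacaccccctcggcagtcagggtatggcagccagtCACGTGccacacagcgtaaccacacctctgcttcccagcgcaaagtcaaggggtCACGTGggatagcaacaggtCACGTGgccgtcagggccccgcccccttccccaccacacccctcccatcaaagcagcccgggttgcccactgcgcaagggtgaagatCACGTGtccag
Cdk1, chr10:69352913-69353162, minus strand: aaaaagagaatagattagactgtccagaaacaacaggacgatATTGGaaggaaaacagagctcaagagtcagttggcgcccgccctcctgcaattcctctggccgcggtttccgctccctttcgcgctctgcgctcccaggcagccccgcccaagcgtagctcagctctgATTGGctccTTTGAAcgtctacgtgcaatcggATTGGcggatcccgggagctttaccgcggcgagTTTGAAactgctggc
Ccne1, chr7:38107491-38107740, minus strand: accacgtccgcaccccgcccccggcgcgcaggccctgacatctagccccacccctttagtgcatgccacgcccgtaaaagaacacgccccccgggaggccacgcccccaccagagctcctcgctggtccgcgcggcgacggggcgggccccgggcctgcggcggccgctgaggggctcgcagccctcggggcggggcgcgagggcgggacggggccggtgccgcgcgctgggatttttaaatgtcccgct
Cdc20, chr4:118437344-118437593, minus strand: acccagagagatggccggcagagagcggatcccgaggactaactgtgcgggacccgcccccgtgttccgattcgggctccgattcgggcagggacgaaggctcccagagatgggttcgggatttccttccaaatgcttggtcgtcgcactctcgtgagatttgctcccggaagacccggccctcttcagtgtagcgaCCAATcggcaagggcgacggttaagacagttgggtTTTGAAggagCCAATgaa
Ube2c, chr2:164769679-164769928, plus strand: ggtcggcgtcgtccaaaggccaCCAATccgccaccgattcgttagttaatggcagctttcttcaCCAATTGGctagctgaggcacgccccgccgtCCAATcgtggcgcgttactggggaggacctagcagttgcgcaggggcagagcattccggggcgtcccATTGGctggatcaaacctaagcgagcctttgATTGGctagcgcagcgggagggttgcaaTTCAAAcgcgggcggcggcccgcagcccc

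The Cdk1 run held 2 copies of TTTGAA and 3 of CCAAT, the Cdc20 run 1 and 2, and the Ube2c run 1 and 6. The Cdk4 run held 4 copies of CACGTG. In the Wee2 run 1 CCAAT was found, and the Aurkc and Ccne1 runs held none of the 3 motifs in these letters. The table had 47 windows for 42 of the 52 members, each covering the 250 bases before the start and the 50 after it. CCAAT lay in 68.1% of the members' windows and in 37.4% of all 32851 windows, TTTGAA in 27.7% and 17.9%, and CACGTG in 12.8% and 7.15%. The E2F-like words TTTCCCGC and TTTGGCGC, searched on both strands, were in 4.26% and 2.13% of the members' windows and in 1.07% and 0.514% of all windows. Among the 17 windows of members that were higher at the morula than at 6 hpa, TTTGAA was in 35.3%, and among the 13 windows of those that were lower it was in 15.4%. TTTGAA and CCAAT can share a base, and a match is a match of letters only.

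At 6 hpa Wee2, Aurkc, Ccne2 and, by a small margin, Fbxo43 had the higher mean level of their pairs, and at the morula Wee1, Aurkb, Ccne1 and Fbxo5 had it. The ratio of the 2 members was taken within each library, as log2 of (TPM + 1) of the first over the second. Where a member is near 0 the added 1 sets its term, and the ratio then moves with the level of the other member and with the scale of the library. For 8 pairs the mean ratio at the morula was compared with that at 6 hpa in a two-sided exact permutation test over 924 splits, with Benjamini-Hochberg adjustment over the 8. The smallest p this design allows is 0.00216.

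Wee2, the oocyte kinase that keeps Cdk1 inactive, was listed at 0 in the 3 CC libraries. In the clones it had a lowest, median and highest level of 218, 231 and 257 TPM at 6 hpa, 224, 257 and 306 TPM at 14 hpa, 275, 309 and 490 TPM at E2C and 97.5, 246 and 392 TPM at L2C. At 4C the 5 libraries held 6.84, 6.48, 0.188, 3.48 and 7.10 TPM. Every library from 6 hpa to L2C was above every one at 4C. From 8C to the TE no library passed 1.66 TPM. Wee1, its somatic counterpart, stayed low, with medians of 1.95 TPM at 6 hpa, 13.8 TPM at L2C, 10.4 TPM at 8C and 6.50 TPM at the morula, and between 0.901 and 6.43 TPM in CCs. Wee2 was above Wee1 in 6 of 6 libraries at each stage up to L2C, in 2 of 5 at 4C and in none from 8C on. The mean log2 ratio went from 6.50 ± 0.64 (SD, n = 6) at 6 hpa to -2.91 ± 0.55 (SD, n = 6) at the morula, a difference of -9.40 (exact permutation test, adjusted p = 0.00289).

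Aurkc, the germ cell form of the passenger complex kinase, had 174, 497 and 579 TPM at 6 hpa as lowest, median and highest level, 32.3, 180 and 351 TPM at 14 hpa, 38.3, 155 and 277 TPM at E2C and 7.68, 27.8 and 71.2 TPM at L2C. Libraries of neighbouring stages overlapped, but none at L2C reached the lowest level of 6 hpa. The 4C libraries held 1.39, 0.896, 0.292, 24.0 and 17.3 TPM, and the medians were 4.15 TPM at 8C, 3.46 TPM at the morula, 2.39 TPM in the ICM and 0.123 TPM in the TE. In CCs it was at 0, 0 and 0.117 TPM. Aurkb, which serves somatic cells, was at 21.3, 29.3 and 4.26 TPM in CCs, at no more than 1.94 TPM at 6 hpa, and had medians of 31.4 TPM at L2C, 33.7 TPM at the morula and 58.1 TPM in the ICM. Aurkc exceeded Aurkb in all libraries to E2C, in 3 of 6 at L2C, in none at 4C, 8C, the morula and the TE, and in 1 of 6 in the ICM. The log2 ratio fell by 10.7 from 6 hpa (7.84 ± 0.50, SD, n = 6) to the morula (-2.82 ± 0.91, SD, n = 6; exact permutation test, adjusted p = 0.00289).

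The APC/C inhibitors Fbxo43 (Emi2), which holds the egg, and Fbxo5 (Emi1), which acts in interphase, began side by side. Fbxo43 had 53.0, 64.2 and 79.3 TPM at 6 hpa, 32.1, 50.6 and 60.9 TPM at 14 hpa, 19.2, 39.4 and 57.3 TPM at E2C and 5.19, 13.2 and 20.3 TPM at L2C, then 2.05, 0.419, 3.35, 0.754 and 1.11 TPM in the 4C libraries and at most 0.681 TPM from 8C on. The locus assembled over Fbxo43 was at 5.43 TPM in the highest 8C library. In CCs it was at 0, 0.0382 and 0.339 TPM. Fbxo5 had medians of 58.4 TPM at 6 hpa, 171 TPM at L2C, 73.9 TPM at 8C, 111 TPM at the morula and 108 TPM in the TE, with 16.2, 14.9, 18.5, 56.5 and 83.7 TPM at 4C and 12.4, 15.9 and 6.33 TPM in CCs. Fbxo43 was above Fbxo5 in 5 of 6 libraries at 6 hpa and in none from L2C on. The log2 ratio went from 0.24 ± 0.31 to -6.71 ± 0.55 (SD, n = 6 each), a difference of -6.94 (exact permutation test, adjusted p = 0.00289).

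The cyclin E genes, partners of Cdk2 at the start of S phase, also changed places. Ccne2 had medians of 56.2 TPM at 6 hpa, 97.4 TPM at 14 hpa, 79.1 TPM at E2C, 54.5 TPM at L2C, 11.7 TPM at 8C and 38.7 TPM at the morula, with 53.1, 67.8, 60.0, 20.5 and 43.4 TPM at 4C and 4.88, 2.53 and 5.25 TPM in CCs. Ccne1 had 1.02, 6.51 and 10.8 TPM at 6 hpa as lowest, median and highest level, 3.31, 21.9 and 82.5 TPM at E2C, 37.1, 145 and 247 TPM at L2C, 227, 276 and 414 TPM at 8C and 174, 367 and 785 TPM at the morula, with 17.2, 68.8, 97.4, 271 and 281 TPM at 4C and 0.0519, 8.32 and 0 TPM in CCs. No library at 6 hpa reached the lowest morula level. Ccne2 led in 6 of 6 libraries to E2C, in 1 of 6 at L2C, in 1 of 5 at 4C, in none at 8C, the morula and the ICM, and in 2 of 6 in the TE. The log2 ratio of Ccne2 to Ccne1 was 3.33 ± 1.2 at 6 hpa and -3.40 ± 1.1 at the morula (SD, n = 6 each), a difference of -6.74 (exact permutation test, adjusted p = 0.00289).

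In the other 4 pairs the same member led at both stages. Ccnb3, a cyclin B of meiosis, had 9.67, 14.6 and 22.1 TPM at 6 hpa and at most 0.120 TPM at the morula, and was listed at 0 in CCs. Ccnb1, the mitotic cyclin B, had 1825, 2595 and 2989 TPM at 6 hpa, 286, 1025 and 1567 TPM at L2C, 2098, 2418 and 3026 TPM at 8C and 804, 902 and 1862 TPM at the morula. Ccnb1 therefore exceeded Ccnb3 in every library, and the log2 ratio of Ccnb3 to Ccnb1 moved by -2.64 (exact permutation test, adjusted p = 0.00289). Germline cyclin A, Ccna1, was at or near 0 throughout, with highest levels of 3.71 TPM at L2C and 2.69 TPM at E2C, so its ratio to Ccna2 (difference -1.33, exact permutation test, adjusted p = 0.00289) follows Ccna2, the S phase and G2 cyclin, which had medians of 127 TPM at 6 hpa and 311 TPM at the morula. Cdc25b, the phosphatase needed for oocyte meiosis, was not above Cdc25a at 6 hpa (medians of 1.74 and 7.43 TPM) and was above it in 6 of 6 libraries only at E2C, where the medians were 8.24 and 4.01 TPM. Its ratio differed by -1.07 and that of the APC/C activators Fzr1 to Cdc20 by -1.95 (exact permutation tests, adjusted p = 0.0108 and 0.00989), and in both pairs the 2 stages overlapped. Fzr1 had medians of 2.85 TPM at 6 hpa and 6.75 TPM at the morula, and Cdc20 of 134 and 1261 TPM.

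**Figure D2:**
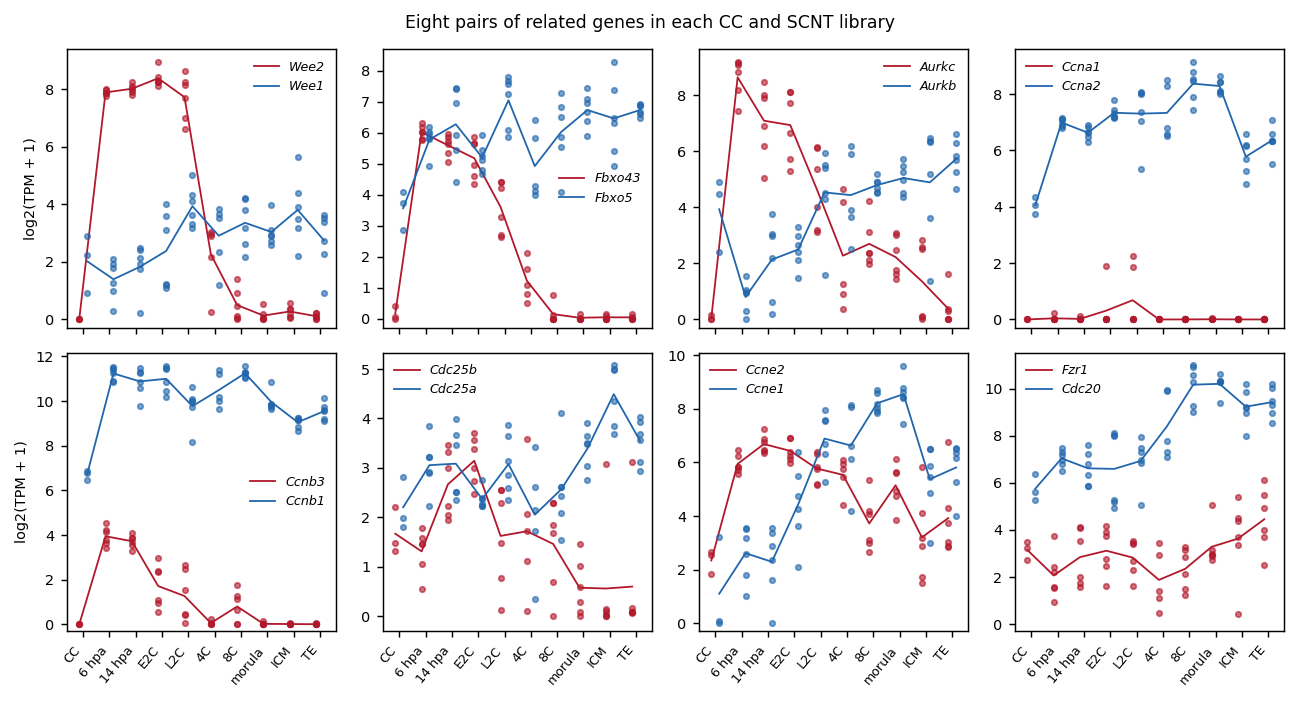
Log2(TPM + 1) of the 8 pairs (panels) by stage in each CC and SCNT library, with points for libraries and lines through the means of the plotted values. The lines of Wee2 and Wee1 cross between L2C and 4C, Aurkc and Aurkb and the cyclin E genes cross around L2C, and Fbxo43 and Fbxo5 part at L2C, where Fbxo43 had a median of 13.2 TPM and Fbxo5 of 171 TPM.

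Mos, the kinase of metaphase II arrest, was listed at 0 in CCs and had 2.19, 12.6 and 19.0 TPM at 6 hpa, with medians of 5.96 TPM at 14 hpa, 5.55 TPM at E2C and 2.65 TPM at L2C. Securin, Pttg1, was the most abundant member at 6 hpa, with 8262, 9356 and 10630 TPM against 169, 151 and 474 TPM in CCs. It still had a median of 8933 TPM at E2C, then 1649 TPM at L2C, 335 TPM at 8C and 155 TPM at the morula, with 1072, 317, 598, 658 and 1606 TPM at 4C. The lowest E2C library, at 4715 TPM, was above the highest L2C library, at 2325 TPM. In the blastocyst it was at 486, 868 and 1291 TPM in the ICM and 236, 488 and 689 TPM in the TE, so no ICM library overlapped the morula range of 89.4 to 258 TPM. The assembled locus of Pttg1 had a median of 20861 TPM at 6 hpa, 13755 TPM at E2C, 1674 TPM at L2C and 260 TPM at the morula.

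Polyadenylated RNA of Cdk1, the mitotic kinase, and Cdk4, a kinase of G1, was scarce at 6 hpa. Cdk1 had 71.1, 91.8 and 65.0 TPM in CCs, 2.53, 4.99 and 5.36 TPM at 6 hpa, 9.49, 37.4 and 58.4 TPM at 14 hpa, medians of 151 TPM at L2C and 348 TPM at the morula, and 90.2 TPM in the ICM and 127 TPM in the TE. Every library at 14 hpa was above every one at 6 hpa. The D-type cyclins, which activate Cdk4 and Cdk6, were low, with Ccnd1 at medians between 1.52 TPM at 6 hpa and 4.68 TPM at 8C and Ccnd2 below 10 TPM in every clone library, against 13.8, 10.2 and 5.54 TPM in CCs. Ccnd3 was the exception from 8C on. Its lowest, median and highest level were 1.45, 3.25 and 8.26 TPM at 6 hpa, 7.42, 56.1 and 104 TPM at 8C, 38.4, 176 and 354 TPM at the morula, 8.88, 88.3 and 490 TPM in the ICM and 18.4, 70.4 and 270 TPM in the TE, with 2.08, 3.10, 4.96, 13.0 and 15.4 TPM at 4C. In the ICM its 3 lowest libraries were replicates 1 to 3, the ones with fewer genes detected, and the part of that in the level was not tested. Cdkn1b (p27), a CDK inhibitor, had 122, 137 and 227 TPM in CCs and was below 20 TPM in every clone library, with medians of 4.91 TPM at 6 hpa, 10.6 TPM at 14 hpa, 0.157 TPM at 8C, 0.480 TPM at the morula, 7.39 TPM in the ICM and 4.31 TPM in the TE. Its assembled locus reached 115 TPM in 1 library at 14 hpa and had medians of 3.10 TPM at the morula, 44.3 TPM in the ICM and 26.8 TPM in the TE.

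**Figure D3:**
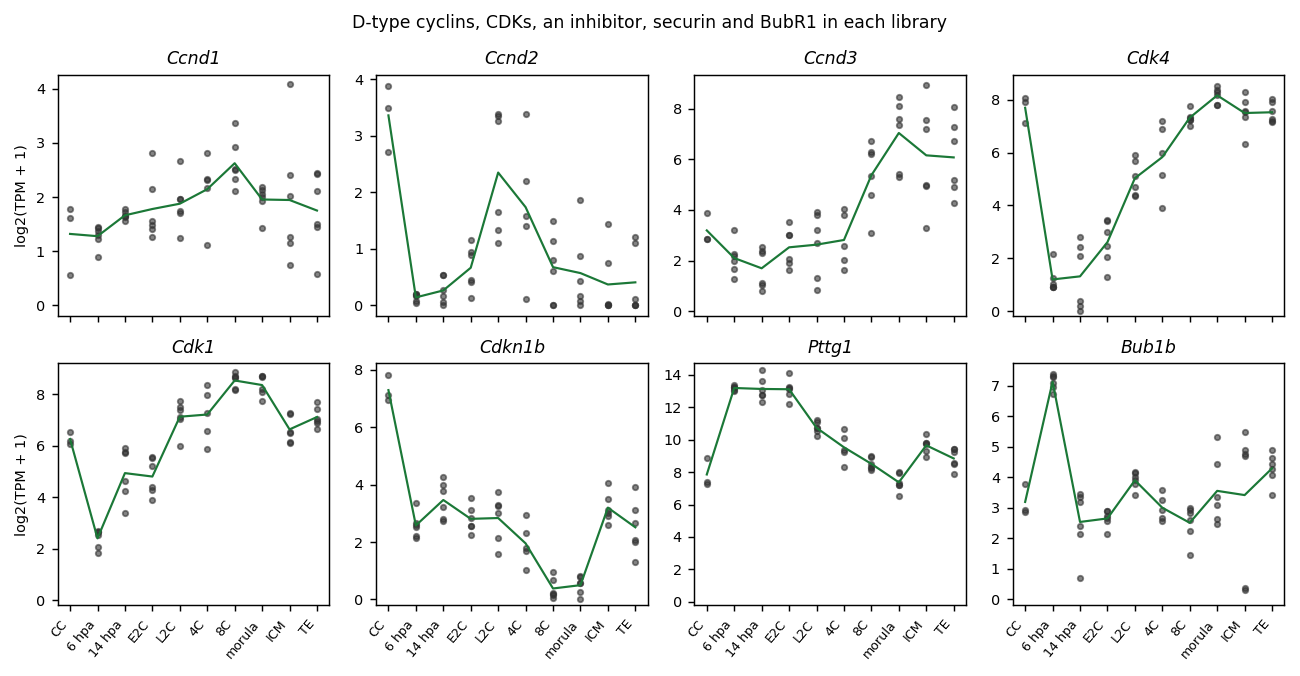
Log2(TPM + 1) by stage of Ccnd1, Ccnd2, Ccnd3, Cdk4, Cdk1, Cdkn1b, Pttg1 and Bub1b in each CC and SCNT library, with points for libraries and lines through the means of the plotted values. Bub1b falls from a mean of 142 TPM at 6 hpa to 5.93 TPM at 14 hpa, Cdk1 climbs from 4.39 TPM at 6 hpa to 335 TPM at the morula, and Cdkn1b is lowest at 8C and the morula (0.337 and 0.439 TPM).

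For changes between neighbouring stages, log2(TPM + 1) of all 12084 genes with a mean of at least 1 TPM was fitted with limma over the 56 CC and SCNT libraries. A gene was called with a Benjamini-Hochberg adjusted p under 0.05 over all genes tested and at least a 2-fold change, and 51 members were tested, all but Ccna1. Fold changes are on the log2(TPM + 1) scale, which understates the change of genes with low levels, and neighbouring comparisons share libraries.

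The comparison of 6 hpa with CCs asks how the cell cycle RNA of the reconstructed egg differs from that of the donor cell. Here 38 members were called, 24 higher and 14 lower, where 61.4% of all genes were called (25.8% higher and 35.6% lower). The median log2 change was 1.29 over the members and -0.28 over all genes. All 3 genes of arrest and sister separation were higher (Mos, Pttg1 and Espl1), as were 6 of 8 mitotic kinase and passenger genes, 6 of 10 cyclins and 3 of 5 spindle checkpoint genes, whereas 6 of 7 CDKs and CDK inhibitors were lower (Cdk1, Cdk2, Cdk4, Cdk7, Cdkn1b and Cdkn2c). Of the APC/C subunits and Ube2c, Anapc10 and Cdc27 were higher and Anapc11, Anapc5, Cdc16 and Ube2c were lower.

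Aurkc was higher by 8.59 (SE 0.79, limma, adjusted p = 5.51e-14). Chek1, a kinase of the DNA damage checkpoint, had 5.90 to 8.82 TPM in CCs and 530 to 690 TPM at 6 hpa, a log2 difference of 6.22 (SE 0.35, limma, adjusted p = 2.66e-22). Fbxo43 was higher by 5.86 (SE 0.35, limma, adjusted p = 3.74e-21) and Pttg1 by 5.33 (SE 0.39, limma, adjusted p = 1.31e-17). Cdk4 had 139 to 265 TPM in CCs and 0.860 to 3.48 TPM at 6 hpa, with a log2 change of -6.50 (SE 0.52, limma, adjusted p = 5.01e-16). Wee2, Ccnb3, Ccno and Mos were listed at 0 in all 3 CC libraries and get no fold. None of the calls in this paragraph was lost under any alternative run. Of the genes named by group, the call of Cdk7 was lost without replicate 3, among replicates 1 to 3 alone, under a pseudocount of 0.1 and under quantile normalization, and that of Ube2c without replicate 1, without replicate 2 and under quantile normalization.

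From 6 to 14 hpa, while the clone passes through its first interphase, 6 members were called, 5 higher and 1 lower, where 11.2% of all genes were called (6.17% higher and 5.02% lower). The median change was 0.11 over the members and 0.01 over all genes. The one that was lower was Bub1b (BubR1), a kinase of the spindle checkpoint. It had 107, 147 and 166 TPM at 6 hpa and 0.608, 6.22 and 10.0 TPM at 14 hpa, so the groups were far apart, and the log2 change was -4.61 (SE 0.56, limma, adjusted p = 1.28e-08). CCs held 6.30 to 12.8 TPM. The assembled locus of Bub1b was at 107 to 167 TPM at 6 hpa and at 7.91 to 22.2 TPM at 14 hpa, with 7.91 TPM in the library listed at 0.608 TPM. The other 4 spindle checkpoint genes did not share this fall, since Ttk was higher and the rest were not called, with Mad2l1 at medians of 1836 and 1788 TPM. Cdk1 rose by 2.53 (SE 0.35, limma, adjusted p = 2.86e-07), Birc5 (survivin) by 1.17 (SE 0.20, limma, adjusted p = 1.22e-05), Ttk by 1.85 (SE 0.54, limma, adjusted p = 0.0131), Cdk2 by 1.32 (SE 0.44, limma, adjusted p = 0.0340) and Ube2c by 1.29 (SE 0.44, limma, adjusted p = 0.0384). The call of Ttk was lost without replicate 4 or without replicate 5, among replicates 1 to 3 alone and under a pseudocount of 0.1, and those of Cdk2 and Ube2c without any 1 of replicates 3 to 6, among replicates 1 to 3 alone and when every gene above 0 in any library was kept. Ube2c was also not called when only the groups compared were fitted.

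Between 14 hpa and E2C 3 members were called, where 6.00% of all genes were (2.90% higher and 3.10% lower), and the median change was 0.12 over both the members and all genes. The split of 1 higher and 2 lower was 2 and 2 when rescaled over annotated genes and 3 and 4 under quantile normalization. Ccne1 was higher by 2.14 (SE 0.65, limma, adjusted p = 0.0305), while Ccnb3 was lower, with a log2 change of -2.01 (SE 0.34, limma, adjusted p = 3.21e-05), and so was Bub3, a spindle checkpoint protein, with -1.51 (SE 0.35, limma, adjusted p = 0.00301). The call of Ccne1 was lost without replicate 1, 2, 3 or 4, among replicates 4 to 6 alone, with all genes above 0 and when only the groups compared were fitted, and the last of these also ended the call of Bub3. Over the alternatives the change of Ccne1 ran from 0.0592 to 4.23.

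L2C is the stage of the main wave of genome activation, and 25 members changed there, 13 higher and 12 lower, where 34.7% of all genes were called (23.6% higher and 11.1% lower). The median change was 0.28 over the members and 0.26 over all genes. When TPM was rescaled to a common total over annotated genes the split was 18 higher and 7 lower. Of the 7 CDKs and CDK inhibitors, Cdk1, Cdk4, Cdk6 and Cdk7 were higher and none was lower. The mitotic cyclins Ccnb1 and Ccnb2, the passenger genes Aurkc, Birc5 and Cdca8, and the centriole kinase Plk4 were lower. Cdc25c, a phosphatase that activates Cdk1, had 0.892 to 14.5 TPM at E2C and 49.5 to 144 TPM at L2C, a rise of 3.98 (SE 0.46, limma, adjusted p = 5.38e-10). Ccne1 rose by 2.46 (SE 0.65, limma, adjusted p = 0.00192), Cdk4 by 2.42 (SE 0.43, limma, adjusted p = 7.16e-06) and Chek2, the other damage checkpoint kinase, by 2.36 (SE 0.52, limma, adjusted p = 0.000207). Ccnb2 had 240 to 535 TPM at E2C and 16.1 to 133 TPM at L2C, a change of -2.78 (SE 0.39, limma, adjusted p = 7.63e-08), and Pttg1 changed by -2.38 (SE 0.32, limma, adjusted p = 2.53e-08). Rescaling over annotated genes ended the calls of Ccnb1, Birc5, Cdca8 and Plk4, and quantile normalization those of Ccnb1, Birc5, Cdca8, Cdk6 and Pttg1. Among replicates 1 to 3 alone Ccnb1, Cdca8, Cdk7, Ccne1 and Chek2 were not called, and among replicates 4 to 6 alone Plk4 and Cdk6 were not. The call of Cdca8 was also lost without replicate 1, and that of Cdk6 without replicate 3, without replicate 6 and under a pseudocount of 0.1.

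At 4C 17 members were called against L2C, 3 higher and 14 lower, where 38.3% of all genes were called (11.7% higher and 26.5% lower). The split was 5 and 13 under quantile normalization. The median change was -0.26 over the members and -0.33 over all genes. The genes that were lower include both APC/C inhibitors, 3 of 5 spindle checkpoint genes (Bub1, Mad2l1 and Ttk), the kinase Wee2 and the phosphatases Cdc25a and Cdc25c, and those that were higher were Cdk2, Anapc11 and Cdc20. Wee2 changed by -5.46 (SE 0.32, limma, adjusted p = 9.67e-20), Chek1 by -2.47 (SE 0.30, limma, adjusted p = 1.02e-09), Aurkc by -2.39 (SE 0.68, limma, adjusted p = 0.00321), Fbxo43 by -2.38 (SE 0.30, limma, adjusted p = 2.86e-09), Cdk6 by -2.25 (SE 0.48, limma, adjusted p = 0.000124) and Fbxo5 by -2.13 (SE 0.51, limma, adjusted p = 0.000506). Among replicates 4 to 6 alone the calls of Aurkc, Cdk6, Bub1, Cdc25a and Anapc11 were lost, and among replicates 1 to 3 alone those of Bub1, Ttk, Cdk2 and Cdc20. Single replicates decided Bub1 (1 or 3), Ttk (3), Cdc25a (1, 2 or 3), Cdc20 (4 or 5) and Cdk2 (1, 3, 4 or 5), whose calls were lost without them. Cdc25a and Cdk2 were called in 10 and 7 of 16 alternatives, and the direction of Cdc25a turned in 1. When only the groups compared were fitted, Cdc25a, Cdk2 and Cdc20 were not called. Quantile normalization ended the call of Cdc25a, and rescaling over annotated genes, a pseudocount of 0.1 and a filter that kept every gene above 0 each ended that of Cdk2. Every one of the 10 oocyte markers was lower at this step as well.

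From 4C to 8C 16 members were called, 11 higher and 5 lower, where 20.0% of all genes were called (11.6% higher and 8.39% lower). The median change was 0.43 over the members and 0.03 over all genes. Rescaled over annotated genes the split was 6 and 6, and under quantile normalization 6 and 5, so the number of rises depends on the scaling. The share of rises among all called genes moved as well. It was 58.0% as reported, 32.7% when rescaled and 52.3% under quantile normalization. Without replicate 2 there were 10 calls, 5 higher and 5 lower, and without replicate 3 there were 10, 7 higher and 3 lower. Ccnd3 rose by 2.56 (SE 0.73, limma, adjusted p = 0.00828), the spindle pole kinase Aurka by 2.41 (SE 0.56, limma, adjusted p = 0.00119), Cdk2 by 1.90 (SE 0.46, limma, adjusted p = 0.00187) and the APC/C activator Cdc20 by 1.77 (SE 0.53, limma, adjusted p = 0.0111). Ccne2 changed by -1.82 (SE 0.53, limma, adjusted p = 0.0102) and Wee2 by -1.77 (SE 0.32, limma, adjusted p = 5.28e-05). The call of Cdc20 was lost without replicate 2, without replicate 3 and among replicates 4 to 6 alone, that of Ccne2 without replicate 1 and among replicates 1 to 3 alone, and that of Wee2 among replicates 1 to 3 alone.

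Few members moved from 8C to the morula, with 3 called, 1 higher and 2 lower, where 12.6% of all genes were (9.05% higher and 3.53% lower), and medians of 0.03 over the members and 0.19 over all genes. Ccnb1 changed by -1.29 (SE 0.29, limma, adjusted p = 0.00111), Pttg1 by -1.14 (SE 0.32, limma, adjusted p = 0.0105) and the APC/C scaffold subunit Anapc5 by 1.25 (SE 0.37, limma, adjusted p = 0.0165). Anapc5 was not called without replicate 2, Anapc5 and Pttg1 not among replicates 4 to 6 alone, and Ccnb1 not among replicates 1 to 3 alone.

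**Figure D4:**
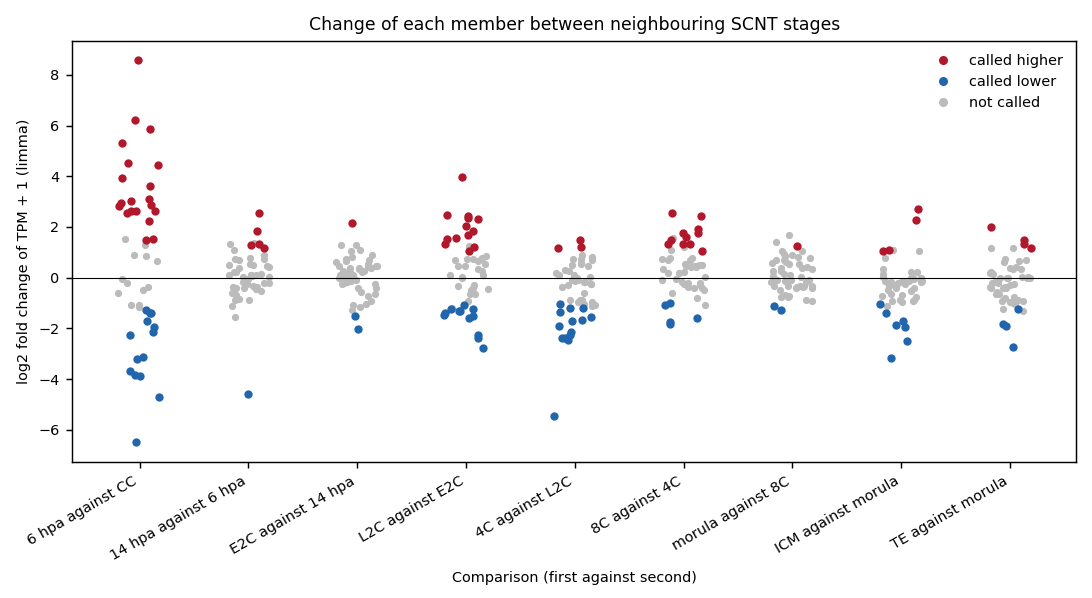
Log2 fold change of each member (points) in the neighbouring comparisons, from the limma fit of log2(TPM + 1), with members called higher in red, called lower in blue and not called in grey. In 6 hpa against CCs 24 members are called higher and 14 lower, and from E2C to L2C 13 and 12, while the steps from 14 hpa to E2C and from 8C to the morula hold 3 called members each. Wee2, Ccnb3, Ccno and Mos are left out of the first comparison because CCs are at 0.

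Set end to end, 33 members differed between the morula and 6 hpa, 18 higher and 15 lower, where 70.0% of all genes were called (41.5% higher and 28.5% lower), with a median change of 0.43 over the members and 0.54 over all genes. The split was 17 and 18 when rescaled over annotated genes and 15 and 22 under quantile normalization. The 6 largest changes were -7.76 for Wee2 (SE 0.31, limma, adjusted p = 5.03e-29), 6.97 for Cdk4 (SE 0.43, limma, adjusted p = 5.93e-21), -6.41 for Aurkc (SE 0.65, limma, adjusted p = 6.27e-13), -5.99 for Fbxo43 (SE 0.29, limma, adjusted p = 1.40e-25), 5.95 for Cdk1 (SE 0.35, limma, adjusted p = 1.79e-21) and 5.94 for Ccne1 (SE 0.65, limma, adjusted p = 1.00e-11), and all 6 were called under each alternative run. Cdk4 had 0.860, 0.971 and 3.48 TPM at 6 hpa, 19.6, 29.3 and 59.6 TPM at L2C and 224, 302 and 368 TPM at the morula. Of the APC/C subunits and Ube2c, Anapc11, Anapc5, Cdc16 and Ube2c, which had been lower at 6 hpa than in CCs, were higher at the morula than at 6 hpa, and Cdc27, which had been higher, was lower. Bub1b, Mad2l1 and Ttk of the checkpoint were lower, and Bub3 was higher. The call of Ttk was lost without replicate 6 and among replicates 1 to 3 alone, and that of Bub3 under quantile normalization.

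The blastocyst differed from the morula in both lineages. In the ICM 11 members were called, 4 higher and 7 lower, where 24.0% of all genes were called (8.93% higher and 15.1% lower), with medians of -0.20 over the members and -0.15 over all genes. In the TE 8 were called, 4 higher and 4 lower, where 22.0% of all genes were (11.0% higher and 10.9% lower), with medians of -0.19 and -0.03, and the split was 4 and 8 under quantile normalization. Without replicate 1 the ICM had 7 calls. Both comparisons use the same morula libraries.

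The S phase cyclins Ccne1 and Ccna2 were lower in both lineages, and Ccne2 was lower in the ICM and not called in the TE. Ccne1 had 7.05, 50.1 and 90.7 TPM in the ICM and 14.8, 76.5 and 93.0 TPM in the TE, all below the lowest morula library at 174 TPM, with changes of -3.18 (SE 0.65, limma, adjusted p = 0.000159) and -2.74 (SE 0.65, limma, adjusted p = 0.00106). Ccna2 had 27.1, 60.2 and 94.1 TPM in the ICM and 45.0, 80.2 and 134 TPM in the TE, against 255 TPM in the lowest morula library, with changes of -2.51 (SE 0.33, limma, adjusted p = 4.97e-08) and -1.92 (SE 0.33, limma, adjusted p = 1.07e-05). The inhibitor Cdkn1b rose by 2.70 (SE 0.36, limma, adjusted p = 6.43e-08) in the ICM and by 2.02 (SE 0.36, limma, adjusted p = 2.12e-05) in the TE, and every blastocyst library was above the highest morula library at 0.764 TPM. Pttg1 rose by 2.28 (SE 0.32, limma, adjusted p = 1.58e-07) and by 1.47 (SE 0.32, limma, adjusted p = 0.000333).

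In the ICM Ccne2 changed by -1.94 (SE 0.51, limma, adjusted p = 0.00284) and Ube2c by -1.86 (SE 0.44, limma, adjusted p = 0.000955), and in the TE Aurkc changed by -1.84 (SE 0.65, limma, adjusted p = 0.0288) and Cdk2 by 1.32 (SE 0.44, limma, adjusted p = 0.0209). The call of Ccne2 was lost without replicate 1 and when only the groups compared were fitted, that of Aurkc without replicate 2, without replicate 4 and with all genes above 0, and that of Cdk2 without replicate 5, without replicate 6, among replicates 1 to 3 alone and under a pseudocount of 0.1. Pttg1 in the TE was not called among replicates 4 to 6 alone.

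Between the SCNT ICM and TE 1 member was called, where 5.79% of all genes were (4.25% lower), with medians of -0.06 over the members and -0.08 over all genes. This was Plk4, the kinase of centriole duplication, with 1.02, 11.4 and 34.9 TPM in the ICM and 13.7, 21.2 and 40.2 TPM in the TE and a change of -1.22 (SE 0.38, limma, adjusted p = 0.0439). The groups overlapped, the call was lost without replicate 1, 2, 3, 4 or 6, and among replicates 4 to 6 alone the difference was 0.04 in the other direction. At an unadjusted p under 0.05 there were 6 members. The matching count over all genes is not given here, so this number is not read as a result about the members.

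In the morpholino experiment 11219 genes were tested over the 12 fertilized libraries, among them 45 members. Ccna1, Ccnb3, Ccnd2, Ccno, Wee2, Fbxo43 and Mos were below a mean of 1 TPM and were not tested. The targeted transcripts were measured first. The control ICM libraries held 38.0 and 8.42 TPM of Max and the Max MO ICM libraries 6.82 and 0.443 TPM, a log2 change of -2.51 (SE 0.80, limma, adjusted p = 0.0397). In the TE controls held 34.5 and 28.5 TPM and the Max MO libraries 16.3 and 8.68 TPM (-1.32, SE 0.80, limma, adjusted p = 0.390). For Mcrs1 the ICM values were 253 and 310 TPM in controls and 86.8 and 73.4 TPM after its MO (-1.80, SE 0.21, limma, adjusted p = 0.00333), and the TE values were 219 and 294 TPM in controls and 41.1 and 45.5 TPM after the MO (-2.53, SE 0.21, limma, adjusted p = 0.000868). An MO can block translation without lowering its transcript, so these levels do not measure the knockdown. Each group holds 2 libraries, both MOs are compared with the same controls, and the 2 control ICM libraries differ in TE markers (16307 and 622 TPM), with 2775 and 5918 TPM in the Max MO ICM and 11674 and 8146 TPM in the Mcrs1 MO ICM. The part of this in the ICM results was not tested.

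Cdc20, the mitotic activator of the APC/C, was higher in both MO groups and both lineages, and it was the 1 member called in all 4 comparisons. It had 423 and 539 TPM in the control ICM, 1207 and 883 TPM in the Max MO ICM and 1163 and 1047 TPM in the Mcrs1 MO ICM. In the TE it had 644 and 587 TPM in controls, 1528 and 1370 TPM with the Max MO and 1902 and 1698 TPM with the Mcrs1 MO. No MO library overlapped the control libraries of its lineage. An exact permutation test of 2 libraries against 2 cannot go below p = 0.333. How many of all genes separate in this way was not counted, so the separation adds no support to the calls. The log2 changes were 1.11 (SE 0.19, limma, adjusted p = 0.00286) and 1.21 (SE 0.19, limma, adjusted p = 0.00653) in the ICM and 1.23 (SE 0.19, limma, adjusted p = 0.0226) and 1.55 (SE 0.19, limma, adjusted p = 0.00405) in the TE. In the Max MO ICM the call was lost without control ICM replicate 1, without Max MO ICM replicate 1, under quantile normalization and when rescaled over annotated genes. In the Max MO TE it was lost without any 1 of the 4 TE libraries compared, in the Mcrs1 MO ICM without Mcrs1 MO ICM replicate 1, with quantile normalization and with each lineage fitted alone, and in the Mcrs1 MO TE without Mcrs1 MO TE replicate 2.

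Ube2c, the ubiquitin-conjugating enzyme of the APC/C, had 94.6 and 155 TPM in the control ICM, 559 and 446 TPM in the Max MO ICM and 285 and 255 TPM in the Mcrs1 MO ICM. Its changes were 2.03 (SE 0.24, limma, adjusted p = 0.000743), called under all 12 alternatives, and 1.15 (SE 0.24, limma, adjusted p = 0.0168). In the TE it had 333 and 282 TPM in controls, 755 and 892 TPM with the Mcrs1 MO (1.42, SE 0.24, limma, adjusted p = 0.0136) and 555 and 478 TPM with the Max MO, which was not called (0.75, SE 0.24, limma, adjusted p = 0.113). All MO libraries were above the controls of their lineage, with the same limit as for Cdc20. Survivin, Birc5, was at 199 and 205 TPM in the control ICM, 496 and 444 TPM in the Max MO ICM and 486 and 574 TPM in the Mcrs1 MO ICM, with changes of 1.21 (SE 0.18, limma, adjusted p = 0.00155) and 1.38 (SE 0.18, limma, adjusted p = 0.00417), the second of which was lost with each lineage fitted alone. The call of Ube2c in the Mcrs1 MO ICM was lost without control ICM replicate 1, without Mcrs1 MO ICM replicate 1 or 2 and with each lineage fitted alone, and that in the Mcrs1 MO TE without any 1 of the 4 TE libraries compared.

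With the Max MO in the ICM 14 members were called, 7 higher and 7 lower, where 23.7% of all genes were (8.65% higher and 15.1% lower), with medians of 0.03 over the members and -0.21 over all genes. The split was 3 and 8 rescaled over annotated genes and 4 and 1 under quantile normalization. Separase, Espl1, had 12.8 and 38.3 TPM in controls and 5.52 and 2.89 TPM with the MO, a change of -2.21 (SE 0.69, limma, adjusted p = 0.0371). Of the APC/C subunits, Anapc1 went from 17.6 and 32.2 TPM to 6.08 and 6.44 TPM (-1.78, SE 0.46, limma, adjusted p = 0.0168) and Cdc27 from 26.6 and 21.8 TPM to 5.85 and 6.98 TPM (-1.76, SE 0.36, limma, adjusted p = 0.00590), while Anapc11, the catalytic subunit, was higher. The assembled locus of Espl1 was at 14.3 to 37.9 TPM in controls and 13.7 to 15.1 TPM with the MO, so the groups overlapped there, and that of Anapc1 was at 21.9 to 32.2 TPM and 6.44 to 7.57 TPM. Ccne2 changed by -1.42 (SE 0.37, limma, adjusted p = 0.0182) and Cdc25a by -1.35 (SE 0.41, limma, adjusted p = 0.0313).

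The call of Anapc11 was lost without either Max MO ICM library, when rescaled over annotated genes and with each lineage fitted alone. With each lineage fitted alone the Max MO ICM had 6 calls, all higher, so every fall named here was lost, and quantile normalization also ended those of Espl1, Anapc1, Ccne2 and Cdc25a. Without Max MO ICM replicate 2 the calls of Espl1, Anapc1, Ccne2 and Cdc25a were lost, without control ICM replicate 2 those of Espl1, Anapc1 and Ccne2, without Max MO ICM replicate 1 those of Espl1 and Anapc1, and without control ICM replicate 1 that of Cdc25a. A pseudocount of 0.1 ended the call of Espl1, and with all genes above 0 those of Espl1 and Cdc25a were lost. Of the 6 members with CACGTG in their window (Cdk4, Cdk6, Cdk7, Cdkn2c, Espl1 and Ttk), 1 was called in the Max MO ICM, where 23.7% of all genes were called. This was Espl1, whose call was kept in 5 of 12 alternatives. Cdk4, with 303 and 487 TPM in controls and 584 and 634 TPM with the MO, was not called (0.66, SE 0.23, limma, adjusted p = 0.0572). In the TE the Max MO gave 1 called member, Cdc20, where 2.50% of all genes were called (1.04% higher), with medians of 0.05 over the members and -0.19 over all genes.

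With the Mcrs1 MO in the ICM 4 members were called, 3 higher and 1 lower, where 10.1% of all genes were (4.88% higher and 5.21% lower), with medians of 0.21 over the members and -0.05 over all genes. The higher ones were Birc5, Cdc20 and Ube2c, and Espl1, at 1.54 and 6.92 TPM, was lower (-2.37, SE 0.69, limma, adjusted p = 0.0481), a call kept in 4 of 12 alternatives. Its assembled locus was at 5.29 to 15.7 TPM there. It was lost without control ICM replicate 2 and without Mcrs1 MO ICM replicate 1 or 2, with the replicate block, a pseudocount of 0.1, all genes above 0, quantile normalization and each lineage fitted alone. In the TE 4 members were called, all higher, where 5.08% of all genes were (1.77% higher), with medians of 0.13 over the members and -0.24 over all genes. Besides Cdc20 and Ube2c these were Pttg1, at 106 and 68.1 TPM in controls and 326 and 290 TPM with the MO (1.84, SE 0.30, limma, adjusted p = 0.0113), and Anapc10, the substrate recognition subunit of the APC/C (1.01, SE 0.23, limma, adjusted p = 0.0321). Pttg1 was not called without control TE replicate 2 or either Mcrs1 MO TE library, and Anapc10 not without any 1 of the 4 TE libraries compared or when rescaled over annotated genes.

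**Figure D5:**
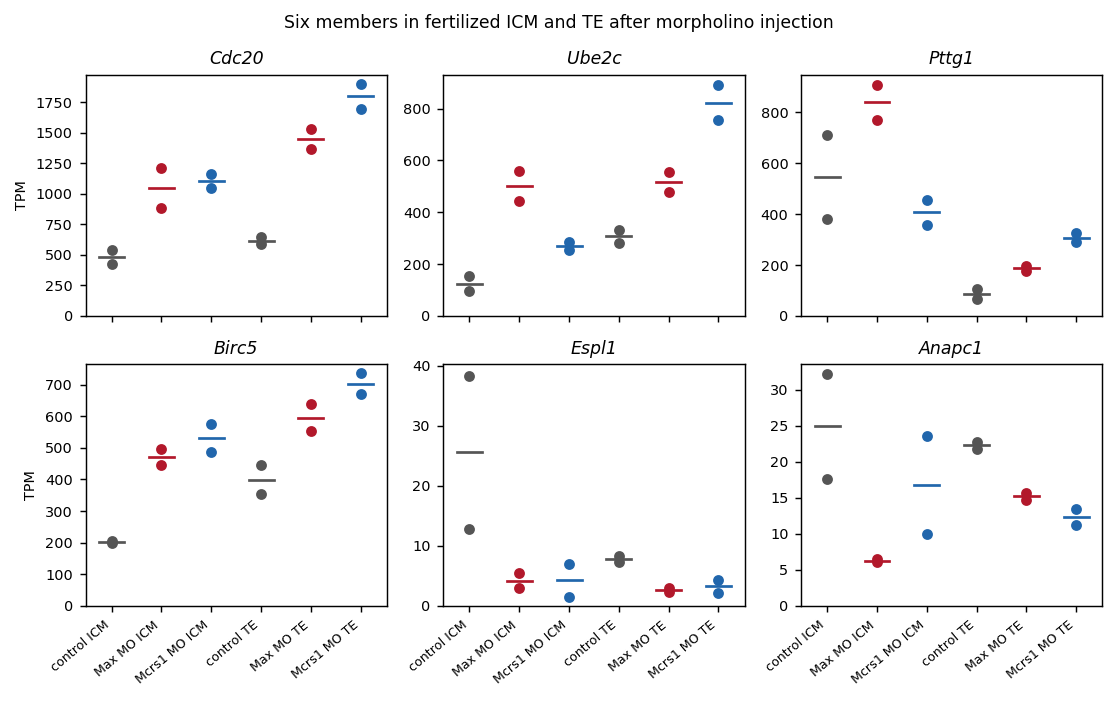
TPM of Cdc20, Ube2c, Pttg1, Birc5, Espl1 and Anapc1 in each of the 12 fertilized libraries (points), with short lines for the mean of the 2 libraries of a group. Cdc20 lies between 883 and 1902 TPM in the MO libraries and between 423 and 644 TPM in the controls of both lineages, and Espl1 in the control ICM is at 12.8 and 38.3 TPM.

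Whether the response to an MO differed between the ICM and TE was tested as an interaction. In limma no member was called for either MO, with 8 members at an unadjusted p under 0.05 for the Max MO and 4 for the Mcrs1 MO. Of all genes 0.00% were called, with 1473 and 972 at an unadjusted p under 0.05. The calls made in 1 lineage and not in the other are therefore not shown to differ between lineages. Among controls, 2 members differed between the ICM and TE, where 2.92% of all genes did, with medians of -0.11 over the members and -0.01 over all genes. Pttg1, at 380 and 712 TPM in the ICM, was higher by 2.60 (SE 0.30, limma, adjusted p = 0.00964), and Ube2c lower (-1.33, SE 0.24, limma, adjusted p = 0.0268). Pttg1 was called under all 11 alternatives, while Ube2c was not called without control ICM replicate 1, without either control TE library or with all genes above 0.

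The other genes of the pathway were read from 5 lists of partners, counted over the same fits. Of all genes 25.8% were higher and 35.6% lower at 6 hpa than in CCs, and 41.5% were higher and 28.5% lower at the morula than at 6 hpa. Of 16 kinetochore and checkpoint partners 12 were higher and none lower at 6 hpa than in CCs (Dsn1 5.24, Nuf2 4.51 and Cenpf 3.87 on the log2 scale, median 2.32), and 2 were higher and 7 lower at the morula than at 6 hpa. Of 12 mitotic entry and exit partners 6 were higher and 1 lower at 6 hpa than in CCs, among them Mastl (4.38), the Greatwall kinase, and Tpx2 (3.32), a spindle assembly factor. Of 9 other APC/C genes 2 were higher and 3 lower at 6 hpa than in CCs, where Anapc13 was at -4.57 and Anapc15 at 3.83, and 4 were higher and none lower at the morula than at 6 hpa, with Anapc13 at 4.43.

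Of 12 other cyclins, CDK partners and inhibitors tested in the clones, 4 were higher and 5 lower at 6 hpa than in CCs, and 6 were higher and 4 lower at the morula than at 6 hpa. Over all genes 25.8% were higher and 35.6% lower in the first comparison, and 41.5% and 28.5% in the second. The inhibitor Cdkn1a (p21) was at -4.76 in the first comparison and at 6.05 in the second. Of 14 RB, E2F and cell cycle transcription factors 7 were higher and 1 lower at 6 hpa than in CCs, and none was higher and 10 were lower at 4C than at L2C, where 11.7% of all genes were higher and 26.5% lower, with E2f5 at -3.72 and Rb1, the retinoblastoma protein, at -2.74. In the Max MO ICM the other APC/C genes had 4 higher and 1 lower, where 8.65% of all genes were higher and 15.1% lower, with Anapc13 at 1.85. There 3 of 14 other cyclins, CDK partners and inhibitors were higher and 3 lower. Of that list, the CDK adaptor Cks1b was higher with the Max MO (1.77 in the ICM and 1.11 in the TE) and with the Mcrs1 MO (1.72 in the ICM and 1.35 in the TE). Pkmyt1, of the same list, was lower in the TE with the Max MO (-2.38) and with the Mcrs1 MO (-2.61).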

How the data were processed

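Smart-seq2 libraries were paired-end 150 bp reads from an unstranded kit. The authors trimmed reads with cutadapt 1.16, aligned them to mm10 with HISAT2 and quantified genes with StringTie. The submitters' processing notes also name Cufflinks and deepTools. The deposited tables hold TPM, FPKM and coverage for each gene. Read counts were not used here. The deposited TPM was treated as a signal, since assembled loci sum to 1000000 and reference genes are listed beside them. Assembled loci overlapping a member on its strand were summed as a check of its level. FPKM and coverage, deposited by the authors, served only to derive aligned gigabases. No interval for counting error can be given.

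TPM was summed per gene symbol. Genes with a mean of at least 1 TPM in a fit were tested with limma 3.58.1 in R 4.3.3 on log2(TPM + 1), over all 56 CC and SCNT libraries or all 12 fertilized libraries, with a trend in the prior variance. Genes with an adjusted p under 0.05 and at least a 2-fold change were called. Pair ratios were tested with exact permutation tests (scipy 1.17.1). Scripts were tested on simulated data. Members and gene lists were chosen with earlier results of these data known. Levels are given for the 16 pair genes and 7 regulators, and fitted changes for at most 6 called members with the largest change per comparison. Other values were named after they were seen.

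Alternatives were the pseudocount, the filter, the scaling (over annotated genes, or quantile normalization), the largest entry of a gene in place of the sum, the samples fitted, replicates 1 to 3 and 4 to 6 apart, a replicate block, and leaving out replicates. For the morpholino groups single libraries were left out, a choice made after seeing the data. Same-numbered samples deviated together in 6 of 6 pairs between 6 and 14 hpa (r from 0.155 to 0.393) and between the SCNT ICM and TE (0.124 to 0.283). The source of that pairing is these correlations, not the labels.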

Additional observations from a re-analysis of the deposited data

Results flagged for a closer look

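Among 183 groups of 4 to 10 samples, over 23 genes, 16 had 1 library far from the others by Dixon's test, which flags about 1 in 20 groups by chance. The causes were not tested.

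At 6 hpa, Fbxo5 was at 29.3 TPM in replicate 1 (others 55.2 to 72.0). At 14 hpa, Wee1 was at 0.175 TPM in replicate 2 (others 2.33 to 4.57). At E2C, Ccna1 was at 2.69 TPM in replicate 3 (others at 0) and Cdc25a at 5.72 TPM in replicate 5 (others 3.67 to 4.24). At L2C, Ccnb1 was at 286 TPM in replicate 1 (others 863 to 1567). At 8C, Mos was at 3.81 TPM in replicate 2 (others 0 to 0.583).

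At the morula, Fzr1 was at 32.2 TPM (others 5.58 to 7.73) and Wee1 at 14.6 TPM (others 5.04 to 7.57), both in replicate 2. There, Ccnb1 was at 1862 TPM in replicate 3 (others 804 to 934), Cdc20 at 678 TPM in replicate 1 (others 1229 to 1579), Mos at 1.22 TPM in replicate 5 (others at 0) and Ccnd1 at 1.70 TPM in replicate 1 (others 2.78 to 3.57).

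In the SCNT ICM, Cdc25b was at 7.42 TPM in replicate 1 (others 0 to 0.108). In the SCNT TE, Cdc25b was at 7.72 TPM in replicate 5 (others 0.0459 to 0.126), Aurkc at 2.09 TPM in replicate 5 (others 0 to 0.284) and Ccne2 at 107 TPM in replicate 3 (others 6.18 to 18.6).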

How the results depend on the processing

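Over the alternatives run, 220 counts of members called stayed within 1.5 times the value reported and 44 did not. The fitted changes counted here are those of at most 6 called members with the largest change per comparison. The changes given for the lists of partners were not followed through the alternatives. Of the changes counted, 955 kept their direction and side of the threshold and 118 lost the call. The remaining 1 reversed (Plk4 between SCNT ICM and TE, 0.0356 among replicates 4 to 6 alone). Among called members for which no fitted change is given, Cdc25a from L2C to 4C and Plk4 in ICM against morula also turned in 1 alternative each. Of pair ratios, 70 kept theirs and 18 lost it. The causes were not tested, except where fewer samples remained. The values are not counts, so depth sets no limit that could be computed here, and the 2 libraries per morpholino group limit those calls.

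The counts here and below show how the number of calls depends on the run. The share of all genes called in each run is not given beside them, so they show nothing particular to the members. Among replicates 4 to 6 alone 13 members were called from 6 to 14 hpa, 7 from 8C to the morula and 3 between SCNT ICM and TE. Among replicates 1 to 3 alone 8 were called from 14 hpa to E2C and 5 between SCNT ICM and TE. Between SCNT ICM and TE 0 were called with all genes above 0, with rescaling over annotated genes and with only the groups compared, against 1 reported. Quantile normalization gave 7 from 14 hpa to E2C, 5 in the Max MO ICM and 2 in the Mcrs1 MO ICM. With each lineage fitted alone there were 6 in the Max MO ICM, 3 in the Max MO TE and 0 in the Mcrs1 MO ICM. With all genes above 0 there was 1 between control ICM and TE.

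Leaving out 1 replicate number gave 3 to 7 members from 6 to 14 hpa (3 without replicate 4 or 5), 10 to 16 from 4C to 8C (10 without replicate 2 or 3), 7 to 11 in ICM against morula (7 without replicate 1) and 0 to 2 between SCNT ICM and TE. Leaving out 1 library gave 7 to 15 in the Max MO ICM (7 without either Max MO ICM library), 0 in the Max MO TE without any of its 4 libraries, 1 to 6 in the Mcrs1 MO ICM (1 without Mcrs1 MO ICM replicate 1 and 2 without replicate 2), 0 to 2 in the Mcrs1 MO TE (0 without Mcrs1 MO TE replicate 2) and 1 to 4 between control ICM and TE (4 without either control ICM library and 1 without either control TE library). For the interactions it gave 0 to 2, with 2 for the Max MO without control ICM replicate 2 and 2 for the Mcrs1 MO without control ICM replicate 1.

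Where numbers were paired by the check, the replicate block gave 8 members from 6 to 14 hpa and 1 between SCNT ICM and TE, and it ended no call named there. Elsewhere samples share only a number. There the block gave 5 from 8C to the morula against 3 reported and stayed within 1.5 times in every other comparison, and it ended the call of Espl1 in the Mcrs1 MO ICM. A sign-flip test over 6 pairs, the block for the pair ratios, cannot go below p = 0.0312 and ended the calls of Cdc25b to Cdc25a (-1.07, exact permutation test, adjusted p = 0.0625) and Fzr1 to Cdc20 (-1.95, exact permutation test, adjusted p = 0.0625).

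With 3 libraries against 3 the exact permutation test of a pair ratio cannot go below p = 0.1, so no pair ratio could pass. The differences among replicates 1 to 3 and 4 to 6 were -9.54 and -9.27 for Wee2 to Wee1, -6.69 and -7.19 for Fbxo43 to Fbxo5, -10.9 and -10.4 for Aurkc to Aurkb, -1.43 and -1.23 for Ccna1 to Ccna2, -3.15 and -2.13 for Ccnb3 to Ccnb1, -0.74 and -1.40 for Cdc25b to Cdc25a, -7.09 and -6.38 for Ccne2 to Ccne1, and -1.14 and -2.75 for Fzr1 to Cdc20. The median change of all genes shifted by up to 0.41 on the log2 scale (quantile normalization, L2C to 4C).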
